A study of Mus musculus with 24 samples.

Results

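The genes described here are 10 transcription factors of the intestinal secretory lineage: Atoh1, Spdef, Gfi1, Creb3l1, Creb3l4, Foxa1, Foxa2, Foxa3, Klf4 and Bhlha15. They were chosen by name as factors of goblet and Paneth cell fate, with earlier results of these data already known. All 10 were found among the 53465 genes of the table, and all 10 were among the 15044 genes that passed the filter on low counts.

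RNA was sequenced from cells of Guca2a-Venus mice, a transgenic line made to ask which epithelial cells produce guanylin, the secreted peptide encoded by Guca2a. Every animal carried a bacterial artificial chromosome in which the yellow fluorescent protein Venus stood in place of the Guca2a coding sequence, so Venus marks cells in which the guanylin promoter of the transgene was active, and the negative cells carried the same transgene. The line came from a single founder and had been backcrossed to C57Bl6J to a varying degree, the mice were fed standard chow, and age is not given in the sources used here. Epithelium of the duodenum, jejunum, ileum and colon (the colon piece included the rectum) was sorted into Venus-positive cells, labelled GFP positive, and Venus-negative cells, labelled GFP negative, after dead cells, debris and CD45+ immune cells had been gated out. This gave 8 groups of 3 libraries, which the series describes as 3 different mice. The labels do not say which mouse gave which library, so the p-values measure the spread between libraries and nothing was paired. Libraries of different sorts and regions may come from the same mouse, but the fit treated all libraries as independent.

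The libraries held between 7458616 and 23063124 reads assigned to genes, and mitochondrial genes took 32.3% to 80.7% of them, which left between 2583422 and 7434139 counts on other genes. The mitochondrial share moved with the sort in all 3 regions of the small intestine, at 32.3% to 46.6% in positive and 64.6% to 76.4% in negative libraries of the duodenum, 47.1% to 60.6% and 61.2% to 78.8% in those of the jejunum, and 41.0% to 55.4% and 64.7% to 70.9% in those of the ileum. In the colon the ranges overlapped (68.6% to 77.9% and 65.3% to 80.7%). Its part in the differences below was not tested. The region labels were checked against markers. The ileal genes Fabp6 and Slc10a2 summed to 1777 to 2344 CPM in ileal positive and 135 to 236 CPM in ileal negative libraries, and to at most 14 CPM in the duodenum and jejunum, but also to 101 to 143 CPM in colonic positive libraries, which overlapped the ileal negative ones. The colonic list summed to at least 174 CPM in every colonic library against at most 83.5 CPM in any library of the small intestine. A list of 2 proximal genes summed to 43.7 to 53.6 CPM in duodenal positive and 36.5 to 50.9 CPM in jejunal positive libraries, which overlapped. In negative libraries its sums were 47.1 to 61.0 CPM and 23.8 to 28.9 CPM. The sum thus separated duodenum and jejunum in negative libraries only. CPM are counts divided by the library total after scaling with the trimmed mean of M values (TMM). The detection floor was set at 3 counts, which came to 0.106 to 0.360 CPM. It covers counting error only, since PCR copies were counted without molecular identifiers.

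The intestinal epithelium renews itself from crypt stem cells, and a daughter cell that escapes Notch signalling switches on Atoh1 and enters the secretory lineage. Downstream of that choice, Gfi1 holds goblet and Paneth precursors apart from the enteroendocrine fate, Spdef drives the maturation of goblet and Paneth cells, the FoxA factors bind mucin and hormone genes, and factors of the Creb3 family and Bhlha15 build up the endoplasmic reticulum and the secretory machinery. Klf4 is found both in goblet cells and in the differentiated absorptive cells at the luminal surface. Because whole sorted populations were sequenced, fewer cells of a type and less RNA per cell cannot be told apart.

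RefSeq promoter windows, which run from 250 bases before to 50 bases after a start site on GRCm38.p6, were matched by symbol to 9 of the 10 genes, all but Creb3l1, with 14 windows in all. The windows of Atoh1, Spdef and Klf4 are shown because these genes passed the test between positive and negative cells in all 4 regions, and that of Foxa1 because its positive and negative libraries overlapped in all 4. They lie at chr6:64728875-64729174 on the plus strand for Atoh1, and on the minus strand at chr17:27728902-27729201 for Spdef, chr4:55532426-55532725 for Klf4 and chr12:57546062-57546361 for Foxa1. Each is written 5′ to 3′ along the gene, and capitals mark matches to the motifs named below.
Atoh1: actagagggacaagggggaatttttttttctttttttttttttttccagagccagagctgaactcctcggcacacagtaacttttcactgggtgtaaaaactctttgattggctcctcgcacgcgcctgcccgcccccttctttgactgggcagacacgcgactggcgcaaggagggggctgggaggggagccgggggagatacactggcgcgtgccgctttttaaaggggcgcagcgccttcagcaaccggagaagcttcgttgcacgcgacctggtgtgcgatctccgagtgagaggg
Spdef: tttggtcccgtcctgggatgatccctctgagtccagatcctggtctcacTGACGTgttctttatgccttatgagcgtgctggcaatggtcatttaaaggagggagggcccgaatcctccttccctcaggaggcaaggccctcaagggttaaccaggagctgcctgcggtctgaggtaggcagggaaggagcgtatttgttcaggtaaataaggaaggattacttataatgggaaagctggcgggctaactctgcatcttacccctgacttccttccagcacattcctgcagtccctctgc
Klf4: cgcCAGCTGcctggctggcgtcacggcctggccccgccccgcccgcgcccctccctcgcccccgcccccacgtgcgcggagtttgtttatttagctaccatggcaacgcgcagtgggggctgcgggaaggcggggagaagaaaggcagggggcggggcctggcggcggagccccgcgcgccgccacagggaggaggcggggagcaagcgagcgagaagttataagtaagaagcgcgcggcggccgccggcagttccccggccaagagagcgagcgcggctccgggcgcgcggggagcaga
Foxa1: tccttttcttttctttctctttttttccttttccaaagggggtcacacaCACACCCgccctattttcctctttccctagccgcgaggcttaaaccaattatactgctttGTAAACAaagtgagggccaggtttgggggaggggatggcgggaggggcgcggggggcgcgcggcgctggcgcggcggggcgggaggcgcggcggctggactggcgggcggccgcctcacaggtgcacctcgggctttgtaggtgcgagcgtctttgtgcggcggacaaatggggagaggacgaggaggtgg

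Both strands were searched for 9 sets of letters. Of the E-boxes, to which bHLH factors such as Atoh1 bind, the forms were CAGCTG, the related form CAGATG, and for Bhlha15 the form CATATG. The forkhead motif was TGTTTAC. The core of the cAMP and stress response elements was TGACGT. For Spdef and other ETS proteins the letters were CCGGAT. The core bound by Gfi1 was AATCAC. For Klf proteins the letters were GGGTGTG. The TATA box was TATAAA. The Spdef window held TGACGT, first base 201 bases before the start site. In Klf4 the match was CAGCTG, 247 bases before the start. Foxa1 held TGTTTAC 141 bases and GGGTGTG 201 bases before the start, both read on the opposite strand. The Atoh1 and Gfi1 windows held none of the 9. Among the others, Bhlha15 held CAGATG and, on the opposite strand, CCGGAT, Foxa3 held GGGTGTG and a TATAAA 36 bases before its start, Foxa2 a TATAAA on the opposite strand in 1 of its windows, and Creb3l4 held CAGATG and GGGTGTG in its second window. Of all 32851 windows in the table, 16.3% held CAGCTG, 17.2% CAGATG, 3.91% CATATG, 3.65% TGTTTAC, 7.51% TGACGT, 6.04% CCGGAT, 10.4% AATCAC, 7.95% GGGTGTG and 13.6% TATAAA. These are matches of letters only. None of the motifs overlapped another in the members' windows.

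In the duodenum all 10 factors were higher in positive cells, against 8.88% of all genes tested, and none was lower (8.08%). In the jejunum 3 were higher (18.3% of all genes) and 1, Foxa2, was lower (25.6%). In the ileum 6 were higher (17.9%) and none was lower (20.6%). In the colon 5 were higher (9.31%) and none was lower (3.8%). Atoh1, Spdef and Klf4 passed in every region. Here and below, a difference passed where the adjusted p (quasi-likelihood test of edgeR, Benjamini-Hochberg over 15044 genes) was under 0.05. The median log2 fold change of the 10 factors was 3.81, 0.85, 1.29 and 1.31 from the duodenum to the colon, beside medians over all genes of -0.16, -0.28, -0.27 and 0. With scaling by library size alone the median over all genes in the duodenum moved to 0.27, and the genes called there split into 2267 higher and 350 lower in place of 1336 and 1216. The same scaling gave 3338 higher and 2943 lower in the jejunum in place of 2749 and 3851. No factor past the threshold changed direction under it, but this scaling shifts all genes of a library alike, so that is no test of direction.

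**Figure D1:**
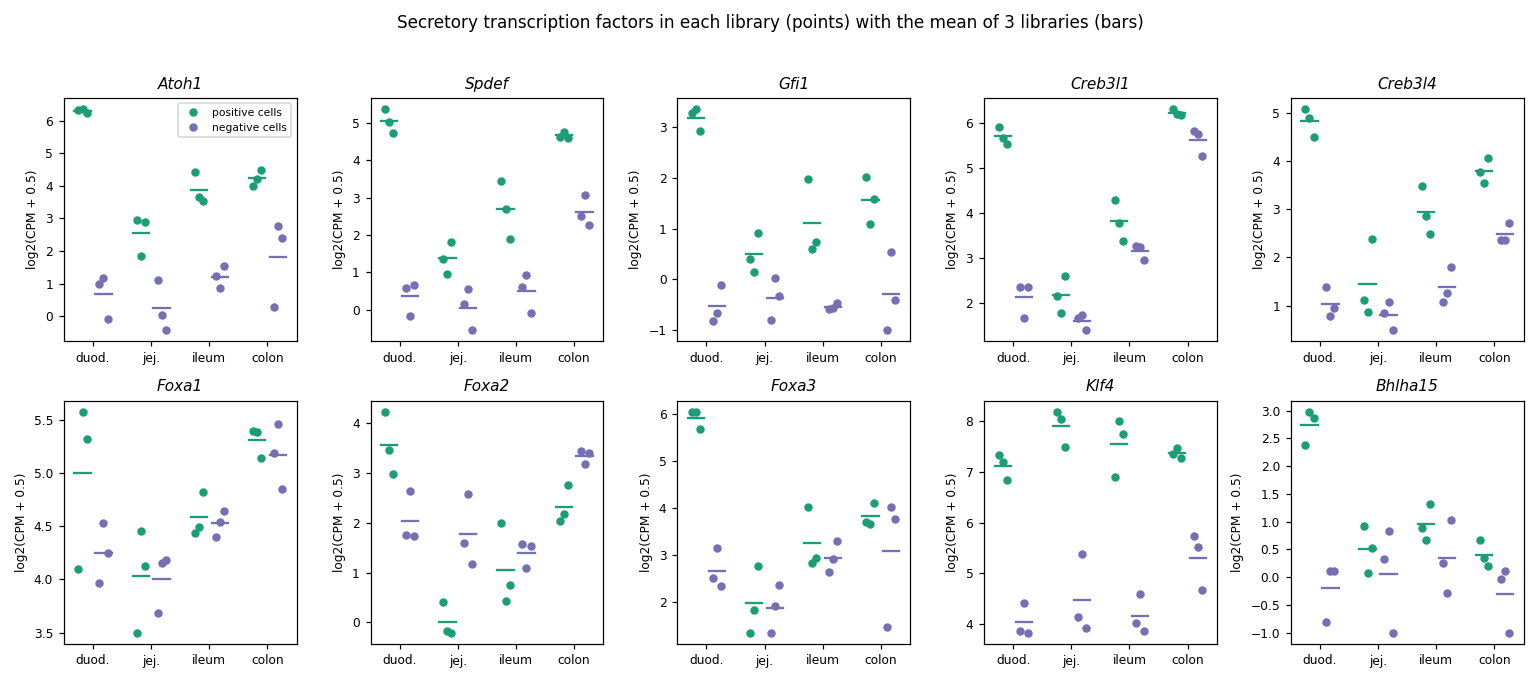
Level of each of the 10 factors on the log2(CPM + 0.5) scale in every library, with points for libraries and bars for the mean of the 3 libraries of a group, for positive (green) and negative (violet) cells of the duodenum, jejunum, ileum and colon. Positive libraries of Atoh1, Spdef, Gfi1, Creb3l1 and Klf4 lie above the negative ones in all 4 regions, whereas those of Foxa1 overlap in all 4.

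Atoh1, the bHLH factor that opens the secretory lineage (chr6:64729125-64731245, GRCm38), showed the largest difference of the 10 in the duodenum. Its level was 79.9, 81.7 and 75.6 CPM in the positive and 1.47, 1.75 and 0.433 CPM in the negative libraries, a log2 fold change of 6.0 (SE 0.597, adjusted p = 1.67e-08). In the other regions the positive cells held much less of it. Jejunal positive libraries stood at 7.29, 3.07 and 6.86 CPM against 1.67, 0.515 and 0.242 CPM (log2 fold change 2.86, SE 0.573, adjusted p = 0.000171). Ileal positive libraries stood at 20.9, 12.3 and 11 CPM against 1.86, 1.30 and 2.44 CPM (2.99, SE 0.520, adjusted p = 3.88e-05). Positive and negative libraries did not overlap in any region. In the colon the values were 15.5, 18.1 and 21.9 CPM against 0.719, 6.30 and 4.76 CPM (2.20, SE 0.504, adjusted p = 0.00348), and the lowest negative value came from the library with the fewest counts outside the mitochondrial genome.

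Gfi1, a zinc-finger repressor that acts below Atoh1 (chr5:107716657-107726036, minus strand), was among the scarcest of the 10. In the duodenum it had 9.22, 9.77 and 7.09 CPM in positive cells and 0.0702, 0.130 and 0.433 CPM in negative cells, the latter resting on 1, 2 and 6 counts (log2 fold change 5.33, SE 0.906, adjusted p = 0.000111). All negative libraries of the small intestine held 8 counts or fewer. In the ileum the positive libraries had 3.45, 1.02 and 1.18 CPM and the negative ones 0.165 to 0.222 CPM (3.29, SE 0.837, adjusted p = 0.00243). In the jejunum the levels were 0.831, 0.614 and 1.39 CPM against 0.0759, 0.515 and 0.302 CPM (1.61, SE 0.824, adjusted p = 0.115). The libraries did not overlap there, but the difference did not pass the test. In the colon they were 3.55, 1.63 and 2.52 CPM against 0, 0.952 and 0.255 CPM (2.55, SE 0.815, adjusted p = 0.0348). That call was lost, with adjusted p of 0.0576 to 0.132, when any of 5 of the 6 colonic libraries was left out, and at 0.117 when the colonic libraries were fitted alone, in a range of 0.00832 to 0.117 over 7 alternatives. A non-coding gene on the opposite strand of Gfi1, A430072P03Rik, held at most 1 count in any library.

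Spdef, the ETS factor of goblet and Paneth cell maturation (chr17:27714352-27728955, minus strand), ran in parallel with Atoh1 in the small intestine. Its duodenal level was 41.0, 32.3 and 26.0 CPM in positive and 0.982, 0.389 and 1.08 CPM in negative cells (log2 fold change 5.33, SE 0.529, adjusted p = 1.54e-08). In the jejunum it was 2.05, 1.45 and 2.99 CPM against 0.607, 0.965 and 0.181 CPM (1.87, SE 0.525, adjusted p = 0.00457). The jejunal call was lost when the jejunal libraries were fitted alone (adjusted p = 0.067, range 0.000386 to 0.067 over 7 alternatives). In the ileum it was 10.4, 6.01 and 3.24 CPM against 1.03, 1.41 and 0.443 CPM (2.73, SE 0.472, adjusted p = 3.53e-05). Colonic negative cells held more Spdef than those of the small intestine, at 5.15, 7.91 and 4.34 CPM against 24.3, 26.8 and 23.8 CPM in positive cells (2.10, SE 0.442, adjusted p = 0.00159).

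Klf4, a zinc-finger factor of differentiated epithelium (chr4:55527143-55532466, minus strand), was the most abundant of the 10 per length in the positive cells of all 4 regions. It had 160, 145 and 114 CPM in duodenal positive cells against 14.1, 20.7 and 13.7 CPM in negative cells (log2 fold change 3.11, SE 0.381, adjusted p = 6.41e-07). In the jejunum it had 290, 262 and 179 CPM against 17.0, 41.3 and 14.6 CPM (3.33, SE 0.384, adjusted p = 1.47e-07). These jejunal positive libraries held more Klf4 than the duodenal ones in every case, the reverse of the order seen for Atoh1 and Spdef. In the ileum it had 119, 254 and 212 CPM against 15.8, 23.7 and 14 CPM (3.45, SE 0.385, adjusted p = 8.94e-08), where the positive library with the least Klf4 was the one with the most Atoh1 and Spdef. In the colon it had 162, 177 and 153 CPM against 52.6, 45.3 and 24.8 CPM (2.01, SE 0.364, adjusted p = 0.000333). Klf4 kept these calls under every alternative and with any compared library left out.

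Creb3l1 and Creb3l4 are membrane-bound bZIP factors that are released from the endoplasmic reticulum and Golgi by proteolysis and then drive secretory pathway genes. Creb3l1 (chr2:91982328-92024502, minus strand) had 60.0, 50.2 and 45.7 CPM in duodenal positive and 4.56, 2.66 and 4.61 CPM in duodenal negative cells (log2 fold change 3.72, SE 0.313, adjusted p = 6.01e-10). In the other regions its positive libraries still lay above all negative ones, but by far less. In the jejunum they stood at 3.96, 2.90 and 5.54 CPM against 2.66, 2.83 and 2.12 CPM (0.70, SE 0.306, adjusted p = 0.0642), a difference that passed under 4 of the alternatives, RLE scaling among them (adjusted p = 0.0311, range 0.0184 to 0.227 over 8 alternatives). That difference also passed without jejunal positive replicate 2 (0.995, adjusted p = 0.0177). The largest adjusted p with a library left out was 0.316. In the ileum they stood at 18.9, 13.1 and 9.93 CPM against 9.16, 8.92 and 7.21 CPM (0.73, SE 0.281, adjusted p = 0.0393). The ileal call was lost under 4 alternatives and without any of 5 of the 6 ileal libraries, the largest adjusted p being 0.26 without positive replicate 1. In the colon both sorts held much Creb3l1, 78.8, 73.3 and 71.6 CPM against 56.2, 53.9 and 38.0 CPM (0.60, SE 0.275, adjusted p = 0.159).

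Creb3l4 (chr3:90237500-90243512, minus strand) had 33.3, 29.4 and 22.2 CPM in duodenal positive and 2.10, 1.23 and 1.44 CPM in duodenal negative cells (log2 fold change 4.15, SE 0.453, adjusted p = 9e-08). In the ileum it had 10.7, 6.79 and 5.08 CPM against 1.61, 1.90 and 2.99 CPM (1.80, SE 0.412, adjusted p = 0.000888). In the colon it had 13.2, 11.1 and 16.2 CPM against 4.67, 4.61 and 6.04 CPM (1.40, SE 0.405, adjusted p = 0.0193). Positive and negative libraries were apart in these 3 regions, although the colonic call was lost without negative replicate 1 or 2 (adjusted p = 0.0529 and 0.0893) and without positive replicate 3 (adjusted p = 0.0696). In the jejunum they overlapped, at 1.66, 1.34 and 4.74 CPM against 1.29, 1.61 and 0.907 CPM (1.01, SE 0.440, adjusted p = 0.0633). There the difference passed with DESeq2's Wald test, RLE scaling, library size alone and protein-coding genes only, in a range of adjusted p of 0.0185 to 0.227 over 8 alternatives. Without positive replicate 3, the library at 4.74 CPM, the log2 fold change fell to 0.24 (adjusted p = 0.705). The jejunal difference passed without positive replicate 1 (1.24, adjusted p = 0.0413) and without positive replicate 2 (1.43, adjusted p = 0.0153).

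The 3 FoxA factors are forkhead proteins that open chromatin at endodermal genes, and each passed in the duodenum. Foxa3 (chr7:19013284-19023538, minus strand) had 65.8, 65.1 and 51.2 CPM in duodenal positive and 5.19, 8.36 and 4.54 CPM in duodenal negative cells (log2 fold change 3.33, SE 0.491, adjusted p = 1.42e-05). Elsewhere its positive and negative libraries overlapped, with log2 fold changes of 0.17 (jejunum), 0.42 (ileum) and 0.40 (colon) and adjusted p of 0.802, 0.488 and 0.633. Foxa1 (chr12:57540628-57546916, minus strand) had 16.6, 47.1 and 39.5 CPM in duodenal positive and 15.2, 22.6 and 18.5 CPM in duodenal negative cells (0.88, SE 0.308, adjusted p = 0.0481). These libraries overlapped, and the call was lost without a filter on low counts (adjusted p = 0.0533, range 0.00443 to 0.0533 over 8 alternatives) and on leaving out any duodenal library but positive replicate 1 (adjusted p = 0.0638 to 0.277). In the other regions the log2 fold changes of Foxa1 were 0.06, 0.07 and 0.13, with adjusted p of 0.847 to 0.899.

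Foxa2 (chr2:148042877-148046969, minus strand) was the only factor to fall in a region. In the jejunum it had 0.831, 0.390 and 0.365 CPM in positive and 2.5, 5.47 and 1.75 CPM in negative cells (log2 fold change -2.60, SE 0.577, adjusted p = 0.000534). All 3 jejunal positive libraries lay below all 3 negative ones, and the call held under all 7 alternatives and without any compared library. In the duodenum the direction was the opposite, with 18.3, 10.6 and 7.43 CPM against 2.88, 5.77 and 2.81 CPM (1.66, SE 0.509, adjusted p = 0.0235). The duodenal call was lost without positive replicate 1 (adjusted p = 0.163) and without negative replicate 1 or 3 (adjusted p = 0.0969 and 0.101). In the ileum Foxa2 stood at 3.50, 0.841 and 1.18 CPM against 2.48, 1.62 and 2.38 CPM (-0.21, SE 0.516, adjusted p = 0.775). In the colon it stood at 3.63, 4.03 and 6.26 CPM against 10.4, 8.57 and 10.1 CPM (-1.06, SE 0.502, adjusted p = 0.171), where the positive libraries lay below the negative ones and the difference passed only with the colonic libraries fitted alone (adjusted p = 0.0456, range 0.0456 to 0.261 over 7 alternatives).

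Bhlha15, also called Mist1, a bHLH factor that enlarges the secretory apparatus of exocrine cells (chr5:144190286-144194441), was the least abundant per length in the positive cells of the duodenum, ileum and colon. Duodenal positive libraries had 4.71, 7.39 and 6.75 CPM against 0.0702, 0.584 and 0.577 CPM in negative ones (log2 fold change 3.91, SE 1.01, adjusted p = 0.00764). The duodenal libraries were well apart. Jejunal levels were 1.41, 0.558 and 0.948 CPM against 0.759, 1.29 and 0 CPM (0.51, SE 0.928, adjusted p = 0.688). Ileal levels were 1.35, 1.08 and 1.99 CPM against 0.701, 0.317 and 1.55 CPM (0.79, SE 0.902, adjusted p = 0.518), and colonic levels 1.08, 0.779 and 0.645 CPM against 0.479, 0.586 and 0 CPM (1.22, SE 1.0, adjusted p = 0.474). Outside the duodenum no library held more than 28 counts of it, the libraries of the sorts overlapped in the jejunum and ileum, and no difference passed the test.

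Counted by overlap alone, the positive libraries of 9 factors lay above all negative ones in the duodenum, where 16.2% of all genes did so. This held for 5 factors in jejunal (22.6%), 6 in ileal (23.2%) and 7 in colonic cells (19.1%). Foxa2 lay below in the jejunum and the colon, as 29.9% and 11.9% of all genes did.

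**Figure D2:**
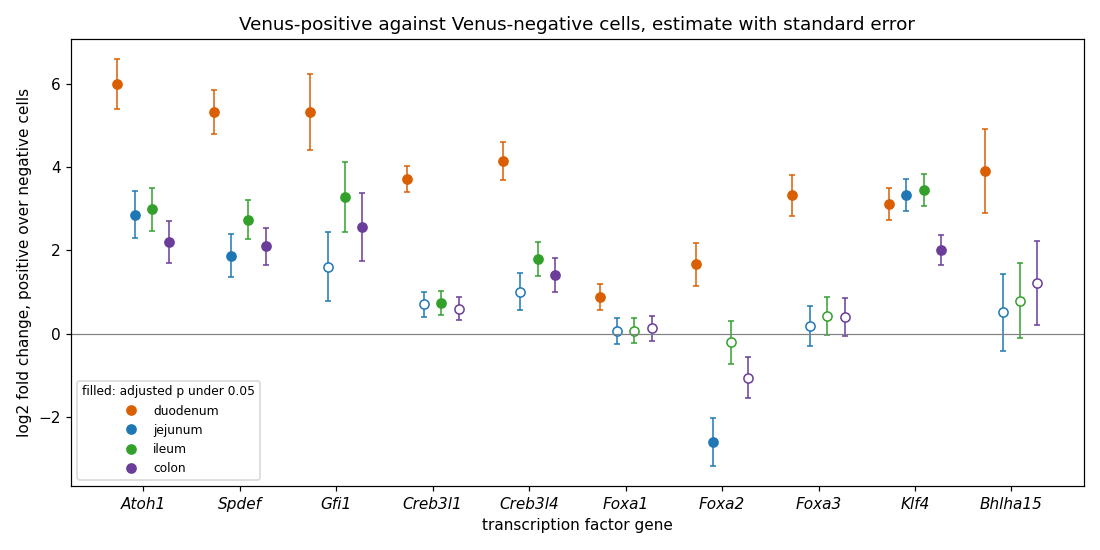
Log2 fold change of positive over negative cells (vertical axis) for each of the 10 factors (horizontal axis) in the duodenum, jejunum, ileum and colon, with bars of 1 standard error and filled points for an adjusted p under 0.05. The duodenal points lie highest for every factor but Klf4, and the lowest point is Foxa2 in the jejunum at -2.60.

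Whether the difference between positive and negative cells depended on the region was tested by the interaction terms of the same model. For 7 factors the duodenal difference exceeded the jejunal one, where 8.77% of all genes were called in that direction. The values were 4.26 on the log2 scale for Foxa2 (SE 0.770, adjusted p = 0.000513), 3.72 for Gfi1 (SE 1.2, adjusted p = 0.0345), 3.46 for Spdef (SE 0.736, adjusted p = 0.00200), 3.15 for Foxa3 (SE 0.675, adjusted p = 0.00210), 3.14 for Atoh1 (SE 0.797, adjusted p = 0.00792), 3.14 for Creb3l4 (SE 0.614, adjusted p = 0.00103) and 3.02 for Creb3l1 (SE 0.427, adjusted p = 3.88e-05). The Gfi1 value lost its call without 8 of the 12 libraries compared, taken out in turn, and the Atoh1 value without jejunal negative replicate 1 (2.09, adjusted p = 0.141). The other 3 did not pass. Klf4 stood at -0.22 (SE 0.499, adjusted p = 0.832) and Foxa1 at 0.82 (SE 0.435, adjusted p = 0.222). Bhlha15 stood at 3.40 (SE 1.34, adjusted p = 0.0861), as large as several of the called values, and passed with DESeq2 (adjusted p = 0.035, range 0.035 to 0.0949 over 7 alternatives) and without jejunal negative replicate 3 (adjusted p = 0.0296).

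Against the ileum, 5 factors had the larger difference in the duodenum, where 4.58% of all genes did, and against the colon 6, where 1.47% did. Scaling by library size alone changed the split of all genes to 1164 higher and 417 lower against the ileum, from 689 and 891, and to 350 and 109 against the colon, from 221 and 323. Atoh1, Spdef, Creb3l1, Creb3l4 and Foxa3 were called in all 3 of these contrasts, by 2.35 (Creb3l4, adjusted p = 0.00822) to 3.01 (Atoh1, adjusted p = 0.00668) against the ileum, where Spdef lost its call without ileal negative replicate 2 (2.22, adjusted p = 0.0503), and by 2.75 (Creb3l4, adjusted p = 0.00428) to 3.80 (Atoh1, adjusted p = 0.00171) against the colon. Against the ileum, Foxa2 (1.88, adjusted p = 0.0979, range 0.0399 to 0.113 over 7 alternatives) passed with library size alone, with the i5 index as covariate and without ileal positive replicate 1 (2.76, adjusted p = 0.0125), and Bhlha15 (3.12, adjusted p = 0.136, range 0.0417 to 0.139 over 7) passed with the compared libraries alone. Foxa2 was added against the colon (2.72, SE 0.715, adjusted p = 0.026), a call that was lost without any of 5 of the 12 libraries compared. These contrasts share the duodenal libraries.

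No factor passed the test between the jejunum, ileum and colon, although 1 factor had an unadjusted p under 0.05 in each of the 3 contrasts: Foxa2 between jejunum and ileum (-2.38, adjusted p = 0.246), and Klf4 between jejunum and colon (1.32, adjusted p = 0.0905) and between ileum and colon (1.44, adjusted p = 0.119). Of all genes, 0.266%, 9.69% and 2.79% were called in these contrasts. Their split moved with the scaling, from 11 higher and 29 lower to 16 and 26 (RLE) or 25 and 13 (library size) between jejunum and ileum, from 346 and 1112 to 494 and 819 or 469 and 459 between jejunum and colon, and from 229 and 190 to 276 and 146 (RLE) between ileum and colon. With DESeq2's Wald test none passed between jejunum and ileum, and Klf4 passed in the other contrasts (1.53, adjusted p = 0.0297, and 1.6, adjusted p = 0.0386).

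**Figure D3:**
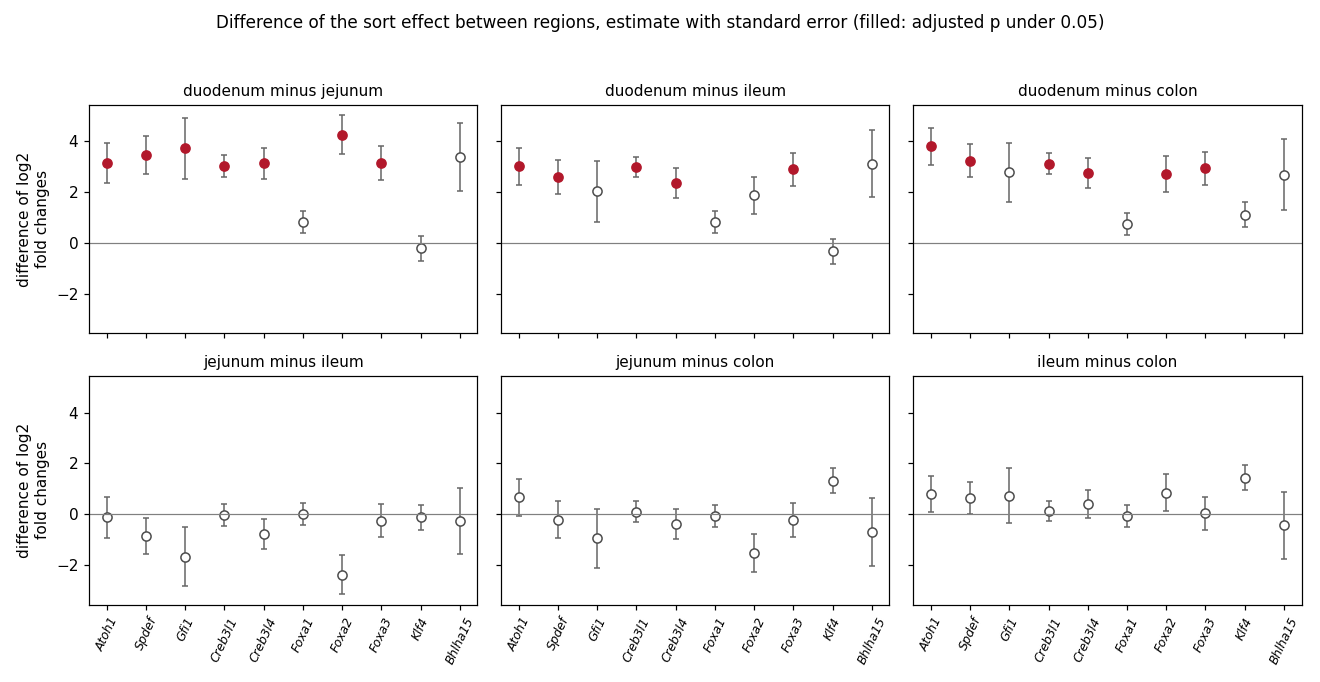
Difference between regions in the log2 fold change of positive over negative cells (vertical axes) for the 10 factors (horizontal axes), 1 panel per pair of regions, with bars of 1 standard error and filled points for an adjusted p under 0.05. The 3 panels with the duodenum hold 7, 5 and 6 filled points, all above 0, and the 3 panels without it hold none.

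Levels were next compared along the gut within each sort. In positive cells the group means of Atoh1, Spdef, Gfi1, Creb3l4, Foxa2 and Foxa3 ran from the duodenum through the colon and ileum down to the jejunum, and those of Creb3l1 and Foxa1 did so with the colon first. Several steps of this order did not pass, such as duodenum against colon for Spdef (adjusted p = 0.621) and ileum against colon for Atoh1 (adjusted p = 0.669). The share of all genes with such an order was not computed. Between duodenal and jejunal positive cells, 9 factors were higher in the duodenum (18.4% of all genes), by 1.07 for Foxa1 (SE 0.309, adjusted p = 0.00825) to 4.5 for Foxa2 (SE 0.599, adjusted p = 1.4e-06). The exception was Klf4, at -0.80 (SE 0.352, adjusted p = 0.0789). The calls of Foxa1 and Bhlha15 (2.69, SE 0.938, adjusted p = 0.0272) were lost without 2 and 4 of the 6 libraries, respectively.

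Between jejunal and ileal positive cells, Creb3l1 (-1.77, SE 0.294, adjusted p = 0.000154), Spdef (-1.61, adjusted p = 0.0307) and Creb3l4 (-1.56, adjusted p = 0.0213) were lower in the jejunum, as were 3% of all genes. Spdef and Creb3l4 lost this call when the jejunal and ileal positive libraries were fitted alone (adjusted p = 0.105 and 0.137, the highest over the alternatives, the lowest being 0.00657 and 0.00637). Spdef also lost it without 4 of the 6 libraries (adjusted p = 0.0531 to 0.257) and Creb3l4 without 3 of them (adjusted p = 0.153 to 0.175). Foxa2 (-1.80, SE 0.578, adjusted p = 0.0684, range 0.0262 to 0.295 over 7 alternatives), Foxa3 (-1.38, SE 0.473, adjusted p = 0.0908, range 0.00898 to 0.151 over 8) and Atoh1 (-1.37, SE 0.485, adjusted p = 0.107, range 0.00698 to 0.115 over 7) did not pass there, although the jejunal libraries of each lay below all ileal ones, as did those of 9.95% of all genes. Between ileal and colonic positive cells, Creb3l1 (-2.41, SE 0.290, adjusted p = 2.46e-07) and Spdef (-1.92, SE 0.435, adjusted p = 0.00169) were higher in the colon, as were 11% of all genes. Between duodenal and colonic positive cells, Atoh1 (2.09, SE 0.483, adjusted p = 0.00269), Foxa3 (2.14, SE 0.465, adjusted p = 0.00148) and Bhlha15 (2.90, SE 0.951, adjusted p = 0.041) were higher in the duodenum, as were 5.84% of all genes. The Bhlha15 call was lost without any of the 6 libraries. Among factors that did not pass, Gfi1 (adjusted p 0.0044 to 0.198), Creb3l4 (0.00705 to 0.147) and Foxa2 (0.0164 to 0.154) did so under some alternatives between duodenum and colon, as did Foxa1 (0.0246 to 0.701) and Foxa2 (0.0194 to 0.323) between ileum and colon. Klf4 spanned 1.75-fold between its highest and lowest region in positive cells, the smallest span of the 10, and none of its contrasts between positive cells passed the test. That between duodenum and jejunum did pass when those libraries were fitted alone (adjusted p = 0.0417, range 0.0417 to 0.144 over 8 alternatives). It also passed without jejunal positive replicate 3 (-0.99, adjusted p = 0.0438). With library size alone the calls over all genes split into 207 higher and 690 lower between jejunum and ileum (323 and 452 with TMM), 2825 and 763 between ileum and colon (1608 and 1653), and 1451 and 626 between duodenum and colon (879 and 982).

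In Venus-negative cells the group mean was highest in the colon for 9 of the 10 factors, all but Bhlha15. The share of all genes with a colonic maximum was not computed. For Gfi1 the colonic values (0, 0.952 and 0.255 CPM) overlapped those of the other regions. Neither Gfi1 nor Foxa3 passed between colonic negative cells and those of the duodenum (adjusted p = 0.549 and 0.317) or ileum (adjusted p = 0.559 and 0.645). Of the 10, 6 were lower in duodenal than in colonic negative cells (4.59% of all genes): Creb3l1 (log2 difference -3.65, SE 0.312, adjusted p = 5.28e-10), Spdef (-2.83, SE 0.502, adjusted p = 0.000151), Atoh1 (-1.71, SE 0.551, adjusted p = 0.0407), Creb3l4 (-1.68, SE 0.432, adjusted p = 0.00855), Klf4 (-1.34, SE 0.361, adjusted p = 0.0125) and Foxa1 (-0.94, SE 0.308, adjusted p = 0.0458). Leaving out a compared library left 3 to 5 of the 10 called, with 3 left on omitting any duodenal negative library. Atoh1 and Foxa1 each lost the call without 5 of the 6 libraries, Klf4 without 3 and Creb3l4 without 1, whereas Creb3l1 and Spdef kept it without any of them. With the duodenal and colonic negative libraries fitted alone, Atoh1 (adjusted p = 0.222, range 0.000259 to 0.222 over 7 alternatives) and Creb3l4 (adjusted p = 0.0568, range 0.000794 to 0.0568 over 8 alternatives) lost theirs. Foxa2 (-1.34, adjusted p = 0.0901, range 0.0191 to 0.0688 over 7 alternatives) passed with DESeq2, with the i5 index as covariate and with the compared libraries alone. Between ileal and colonic negative cells, Creb3l1 (-2.55, adjusted p = 3.81e-07), Spdef (-2.56, adjusted p = 0.000553), Foxa2 (-2.17, adjusted p = 0.00855) and Klf4 (-1.2, adjusted p = 0.0452) were lower in the ileum (2.22% of all genes), Foxa2 losing its call without ileal negative replicate 2 (adjusted p = 0.0713) and Klf4 with library size alone (-0.67, adjusted p = 0.203, range 0.00344 to 0.203 over 8 alternatives), with the compared libraries alone (adjusted p = 0.0508) and without 4 of the 6 libraries. In that contrast Creb3l4 (-1.24, adjusted p = 0.081, range 0.0213 to 0.227 over 8 alternatives) passed under 4 of the alternatives and Atoh1 (-1.12, adjusted p = 0.265, range 0.0481 to 0.561 over 7) without a filter on low counts. Between jejunal and ileal negative cells Creb3l1 was lower in the jejunum (-1.73, SE 0.302, adjusted p = 0.000533, against 0.405% of all genes). With library size alone Atoh1, Foxa1 and Foxa3 were called there too, and the split of all genes turned from 256 higher and 61 lower to 115 and 560. Between ileum and colon it moved from 455 and 334 to 1599 and 234, and with RLE to 348 and 416. Between duodenum and colon the higher genes went from 993, or 59.0% of those called, to 670, or 48.7%, with library size alone. None of the 10 passed between duodenal and jejunal negative cells, by edgeR or by DESeq2 (0.725% of all genes in either direction by edgeR), and 1, Creb3l1, had an unadjusted p under 0.05.

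**Figure D4:**
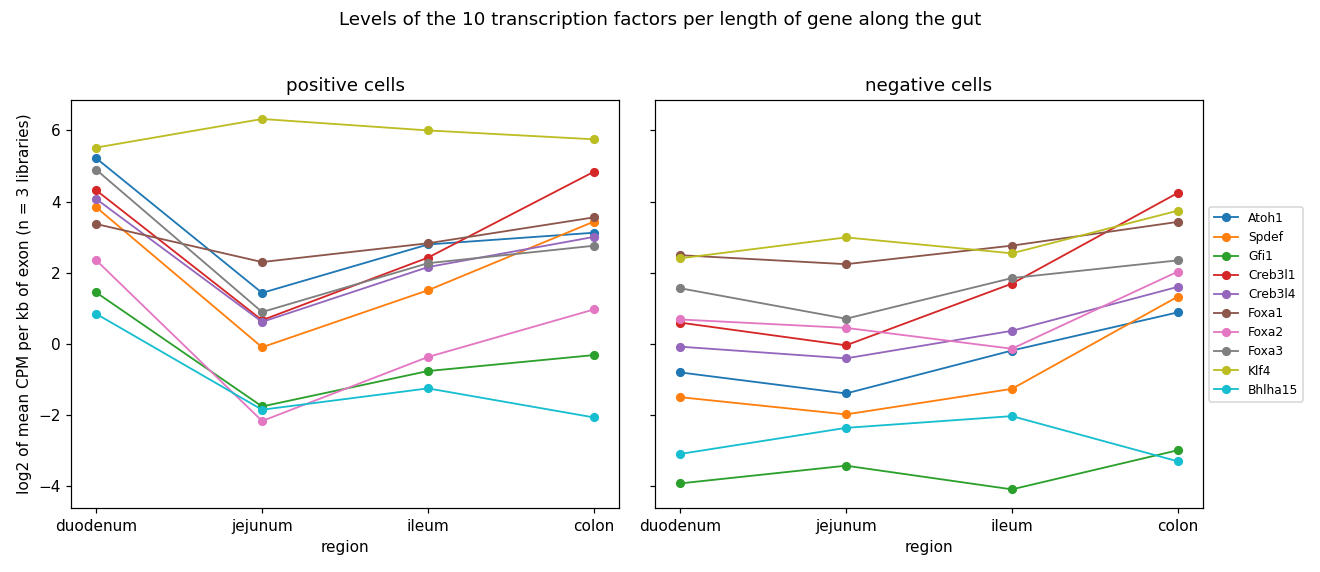
Mean level of each factor per kb of exon, on the log2 scale of CPM per kb (n = 3 libraries a group), in positive cells (left) and negative cells (right) of the duodenum, jejunum, ileum and colon (horizontal axis). Klf4 stays highest in positive cells, 6 of the other lines dip to the jejunum from a duodenal maximum, and in negative cells the colon is highest for every factor but Bhlha15.

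Levels of different genes were compared per kb of exon. In duodenal positive cells Klf4 stood first with 45.8 CPM per kb, followed by Atoh1 with 37.3 and Foxa3 with 29.8 CPM per kb, while Gfi1 had 2.73 and Bhlha15 1.80 CPM per kb. In jejunal positive cells Klf4 had 80.0 CPM per kb and the next, Foxa1, 4.93 CPM per kb. Klf4 thus stood far above the other 9 there. In colonic positive cells Klf4 with 53.8 and Creb3l1 with 28.7 CPM per kb led, and in colonic negative cells Creb3l1 came first with 19.0 CPM per kb. Foxa1 came first in duodenal and ileal negative cells, with 5.64 and 6.79 CPM per kb.

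The products of the goblet cell and of the Paneth cell were set beside the factors, and the counts of this and the next lists stand beside the shares of all genes given above (8.88%, 18.3%, 17.9% and 9.31% higher and 8.08%, 25.6%, 20.6% and 3.8% lower from the duodenum to the colon). Of 14 goblet products tested, 14, 10, 11 and 11 were higher in positive cells from the duodenum to the colon and none was lower, with median log2 fold changes of 6.05, 2.53, 3.71 and 1.66. Muc2, the gel-forming mucin, was higher by 7.96 in the duodenum (adjusted p = 1.74e-11) and by 2.47 in the colon (adjusted p = 0.00019). Agr2, a disulphide isomerase needed for mucin folding, was higher by 4.78 (adjusted p = 7.52e-09) and 2.04 (adjusted p = 0.000819) in these regions. Of 12 Paneth products, 11 were higher in duodenal and in jejunal, 12 in ileal and 1 in colonic positive cells, with medians of 6.36, 3.73, 4.40 and 1.17. Lysozyme (Lyz1) was higher by 6.49 in the duodenum (adjusted p = 9.89e-07) and stood at 0.67 in the colon (adjusted p = 0.592), where only Nupr1 was called (3.10, adjusted p = 0.000684). The defensins of this list (Defa17, Defa22 and Defa24) belong to a family of near-identical copies whose reads can be split between genes, so their single values are uncertain.

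Marker sums of several cell types differed between the sorts and regions. The 7 goblet markers summed to 52987 to 60416 CPM in duodenal positive libraries, 1906 to 4904 CPM in jejunal, 4381 to 10079 CPM in ileal and 4041 to 4954 CPM in colonic positive libraries, and to 295 to 454 CPM in the negative libraries of the small intestine and 922 to 1841 CPM in those of the colon. The 6 Paneth markers summed to 22151 to 52958 CPM in duodenal positive libraries, 1541 to 16118 CPM in jejunal, 4072 to 9629 CPM in ileal and 43.3 to 201 CPM in colonic ones, and to 13.9 to 795 CPM in negative libraries. Goblet sums of colonic and ileal positive libraries overlapped, and Paneth sums were lower in the colonic ones. The 10 enterocyte markers summed to 1461 to 3266 CPM in duodenal positive and 1183 to 1750 CPM in duodenal negative libraries, but to 14111 to 19410 CPM in jejunal positive against 1679 to 2130 CPM in jejunal negative libraries, to 4887 to 6297 CPM against 539 to 599 CPM in the ileum, and to 451 to 544 CPM against 144 to 165 CPM in the colon. Ileal positive replicate 1, which had the most Atoh1, Spdef, Gfi1, Creb3l1, Creb3l4, Foxa2 and Foxa3 of its group and the least Klf4, also had the largest goblet (10079 CPM) and Paneth (9629 CPM) sums of the group. Stem and proliferation markers, 8 in number, summed to 503 to 1020 CPM in duodenal positive and 1738 to 2385 CPM in duodenal negative libraries, and to 39.2 to 310 CPM in jejunal positive and 1561 to 2526 CPM in jejunal negative libraries, with 122 to 233 CPM against 1128 to 3753 CPM for the ileum and 58.2 to 72.4 CPM against 134 to 265 CPM for the colon. The 6 colonocyte markers summed to 2000.5 to 3427.7 CPM in colonic positive and 268 to 475 CPM in colonic negative libraries. In the ileum these were 106 to 247 CPM against 27.1 to 58.3 CPM, and in the duodenum and jejunum the sorts overlapped. Tuft markers, 6 in number, summed lower in the positive libraries of every region, at 3.13 to 5.63 CPM against 12.7 to 49.7 CPM in the jejunum. The part of these cell types in the differences of the 10 factors was not tested.

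The Notch pathway restrains Atoh1. Of its 11 genes tested, 2 were higher and 1 lower in positive cells of the duodenum, 3 higher and 4 lower in both the jejunum and the ileum, and none higher and 2 lower in the colon, and the medians were 0.44, -0.18, -0.88 and -0.31. The receptor Notch1 was lower in all 4 regions, with log2 fold changes from the duodenum to the colon of -1.52 (adjusted p = 0.012), -3.02 (adjusted p = 3.35e-06), -2.88 (adjusted p = 5.42e-06) and -1.85 (adjusted p = 0.00261). The ligand Dll4 was higher in the 3 regions of the small intestine, by 3.36 (adjusted p = 9.11e-08), 1.91 (adjusted p = 6.41e-05) and 2.05 (adjusted p = 3.1e-05), and stood at -0.31 in the colon (adjusted p = 0.632). The ligand Dll1 was higher in the duodenum (2.05, adjusted p = 0.00117) and the jejunum (1.14, adjusted p = 0.0268). Hes1, the Notch target that represses Atoh1, was lower in the jejunum (-1.26, adjusted p = 0.00433) and the ileum (-2.03, adjusted p = 4.52e-05), and stood at -0.19 in the duodenum (adjusted p = 0.742) and -0.65 in the colon (adjusted p = 0.227).

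Other regulators of secretory fates, most of them enteroendocrine or tuft cell factors, were counted in the same way. Of 13 tested, 2 were higher and 5 lower in the duodenum, none higher and 9 lower in the jejunum, 1 higher and 9 lower in the ileum, and none higher and 2 lower in the colon, with medians of -1.68, -4.30, -2.78 and -1.11. Neurod1, an enteroendocrine bHLH factor, was lower in both the duodenum (-6.22, adjusted p = 0.000107) and the jejunum (-4.30, adjusted p = 0.000116). Pou2f3, the tuft cell factor, was lower in the jejunum (-8.38, adjusted p = 0.000117). The 9 enteroendocrine markers summed to 34.6 to 73.6 CPM in duodenal positive and 1137 to 1436 CPM in duodenal negative libraries, to 35.9 to 63.6 against 399 to 1623 CPM in jejunal, 38.6 to 63.5 against 224 to 520 CPM in ileal and 155 to 317 against 493 to 846 CPM in colonic libraries. These markers were thus lower in positive cells of the jejunum and the colon, where Foxa2 lay lower. They were also lower in the duodenum, where Foxa2 was higher (1.66), and in the ileum, where it stood at -0.21. Their part in the Foxa2 differences was not tested. Xbp1, the unfolded protein response factor of secretory cells, was higher in the duodenum and the ileum, by 1.51 (adjusted p = 0.000378) and 0.84 (adjusted p = 0.017). Sox9, a factor of stem and Paneth cells, was lower in the jejunum (-2.89, adjusted p = 4.17e-06) and the ileum (-2.70, adjusted p = 8.43e-06), and stood at 0.12 in the duodenum (adjusted p = 0.875).

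Of 12 regulators of absorptive or general epithelial identity, 1 was higher in duodenal, 6 in jejunal, 6 in ileal and 4 in colonic positive cells, and 2 were lower in jejunal and 1 in ileal positive cells. Hnf4a, a nuclear receptor of enterocytes, was higher in jejunal (1.46, adjusted p = 0.000136), ileal (1.42, adjusted p = 0.000243) and colonic positive cells (1.25, adjusted p = 0.00342), and stood at 0.48 in the duodenum (adjusted p = 0.248). Maf, a bZIP factor, was higher by 2.76 (adjusted p = 1.65e-07), 3.74 (adjusted p = 8.13e-09) and 3.29 (adjusted p = 2.8e-06) in the same regions, and stood at 0.71 in the duodenum (adjusted p = 0.113).

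Relatives of the factors were counted last. Of 12 genes of the endoplasmic reticulum, among them stress sensors and Creb3 relatives, 3 were higher in duodenal, 4 in jejunal, 4 in ileal and 1 in colonic positive cells. From this list 1, Sec61b, was lower in the jejunum (-1.76, adjusted p = 0.000276). Eif2ak3, the kinase PERK, was higher in all 4 regions, by 2.32 (adjusted p = 3.9e-05), 1.89 (adjusted p = 8.95e-05), 1.80 (adjusted p = 0.000178) and 1.07 (adjusted p = 0.0448) from the duodenum to the colon. Creb3l3, a family member of absorptive cells and liver, was higher in jejunal (3.49, adjusted p = 3.48e-05) and ileal positive cells (4.79, adjusted p = 2.37e-06), where Creb3l1 was at 0.70 and 0.73, and stood at 0.31 in the duodenum (adjusted p = 0.749). Of 11 Klf and Fox relatives, 1 was higher in the duodenum, 4 higher and 2 lower in the jejunum, 3 higher and 1 lower in the ileum, and 3 higher in the colon. Klf6 was higher in the jejunum (1.71, adjusted p = 0.000245), ileum (2.12, adjusted p = 2.63e-05) and colon (1.19, adjusted p = 0.0209), and stood at 0.82 in the duodenum (adjusted p = 0.102).

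**Figure D5:**
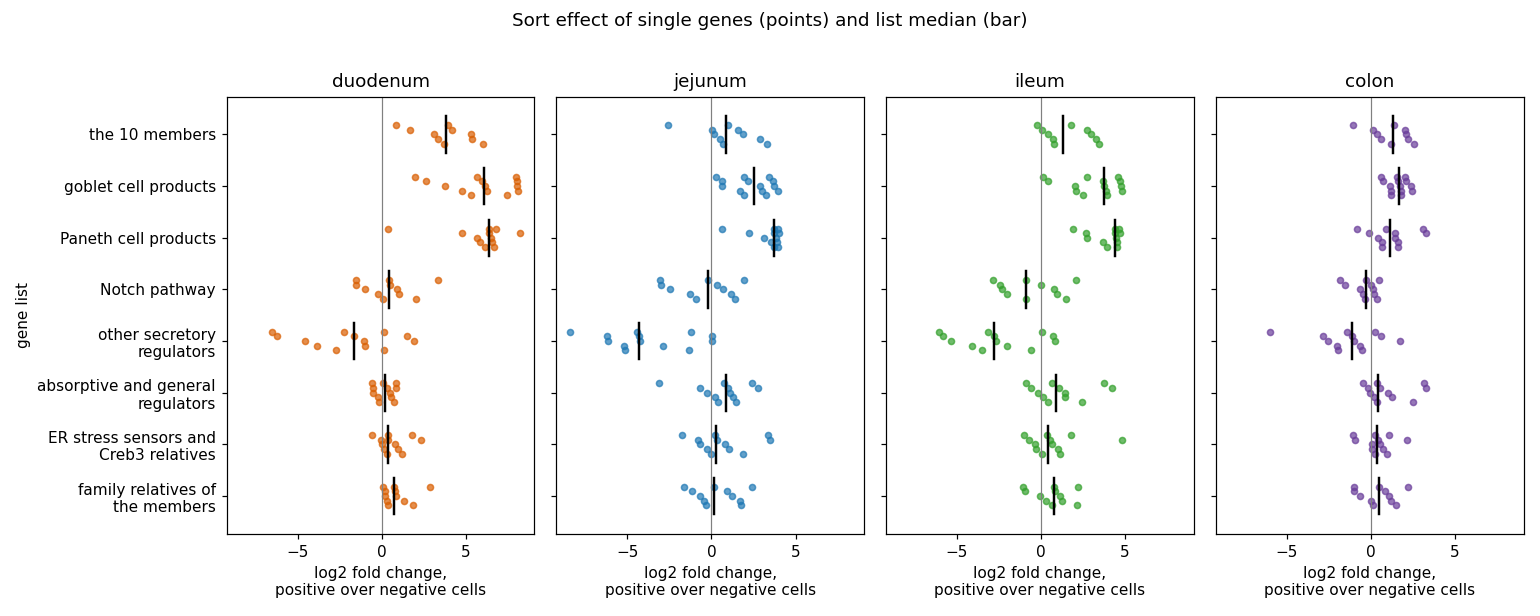
Log2 fold change of positive over negative cells (horizontal axes) for single genes (points) of the 10 factors and of 7 gene lists (vertical axis), with a bar at the median of each list, in the duodenum, jejunum, ileum and colon. Medians of the 10 factors are 3.81, 0.85, 1.29 and 1.31, those of the goblet products 6.05, 2.53, 3.71 and 1.66, and those of the other secretory regulators lie below 0 in all 4 panels.

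For each factor the protein-coding genes with the most similar pattern were sought, by the root mean square (RMS) difference of mean log2(CPM + 0.5) over the 8 groups after each gene was centred on its own mean. The closest to Spdef were Hgfac (RMS 0.16) and Agr2 (0.23), the mucin-folding gene above. Closest to Atoh1 were Kcnk6 (0.31) and Tpsg1 (0.31), to Gfi1 Plcb1 (0.23) and Kcnf1 (0.28), to Creb3l1 Pla2g10 (0.42) and Chrm1 (0.48), and to Creb3l4 Mcf2l (0.22) and Ttc39a (0.24). Of the FoxA factors, Foxa1 was nearest to Mknk2 (0.14) and Tmc1 (0.17), Foxa2 to Slc39a8 (0.37) and Fam110a (0.38), and Foxa3 to Dpysl2 (0.27) and Wars (0.30). Klf4 was nearest to Rhof (0.24) and Rhoc (0.42), and Bhlha15 to Proc (0.18) and Impad1 (0.26). Among the 10 themselves the closest pairs were Gfi1 with Creb3l4 (0.54), Creb3l4 with Foxa3 (0.54) and Spdef with Creb3l4 (0.56). Gfi1 averaged 0.188 to 0.402 CPM in the negative groups, below the 0.5 added before the log, which narrows its differences between groups. These are descriptions over 8 group means, with no test.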

How the data were processed

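Venus-positive and Venus-negative cells of 4 gut regions were measured by stranded total RNA sequencing (SMARTer pico v2 kit, single-end 50 base reads), 24 libraries in all. According to the submitters' processing notes, reads were aligned to GRCm38 with STAR 2.5.1 after CASAVA, and the authors deposited the raw counts per gene, without normalisation. The annotation release and strand setting are not given in the sources used here. Lines for unmapped, multimapping, ambiguous and non-genic reads were left out of library sizes. They held 39.4% to 75.8% of the reads of a library.

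Names and positions came from GENCODE M21 (53360 of 53465 genes matched), and promoter windows from RefSeq (GRCm38.p6). Low counts were removed by filterByExpr at its defaults (a minimum count of 10 and a total of 15), and the rest were scaled by TMM and fitted with edgeR 4.0.16 in R 4.3.3, with 1 coefficient per group over all 24 libraries (common dispersion 0.185). Standard errors are the absolute log2 fold change divided by the root of F. Adjusted p-values are Benjamini-Hochberg over 15044 genes. The fitting code was tested on simulated data.

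Alternatives were DESeq2 1.42.0, RLE factors, library size alone, no filter, a minimum of 10 counts in each library, nuclear protein-coding genes only, a covariate for the i5 index, the compared libraries alone, and each compared library left out. DESeq2 was the authors' own tool for differential expression. The named genes are the 10 members, the 2 genes nearest to each in pattern, and up to 4 genes of a list, the extreme and best known ones. The members and lists were chosen with earlier results of these data known.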

Additional observations from a re-analysis of the deposited data

Results flagged for a closer look

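The difference between positive and negative cells depended on the region for 7 of the 10 factors in 18 tests of the difference itself, all of them interaction terms of the edgeR model with the duodenum on one side. Against the jejunum, ileum and colon 3, 5 and 4 factors did not pass, and in each contrast without the duodenum none of the 10 passed. Of all genes, 8.77%, 4.58% and 1.47% had the larger difference in the duodenum against jejunum, ileum and colon. These values are log2 differences, and the compared groups hold 3 libraries each. Groups of 3 were not searched for single outlying libraries.

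Between the duodenum and the jejunum the sort difference was larger in the duodenum by 3.14 for Atoh1, 3.46 for Spdef, 3.72 for Gfi1, 3.02 for Creb3l1, 3.14 for Creb3l4, 4.26 for Foxa2 and 3.15 for Foxa3. For Foxa2 the positive cells were higher than the negative ones in the duodenum and lower in the jejunum, each past the threshold. The duodenal call was lost without any of 3 of the 6 libraries (adjusted p up to 0.163), and the jejunal one without none.

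Between the duodenum and the ileum it was larger in the duodenum by 3.01 for Atoh1, 2.60 for Spdef, 2.99 for Creb3l1, 2.35 for Creb3l4 and 2.90 for Foxa3. Between the duodenum and the colon it was larger in the duodenum by 3.80 for Atoh1, 3.23 for Spdef, 3.12 for Creb3l1, 2.75 for Creb3l4, 2.72 for Foxa2 and 2.93 for Foxa3. Adjusted p over these 18 results ran from 1.55e-05 (Creb3l1, duodenum against colon) to 0.0345 (Gfi1, duodenum against jejunum). Gfi1 against the jejunum lost its call without any of 8 of the 12 libraries compared, and Foxa2 against the colon without any of 5. Atoh1 against the jejunum and Spdef against the ileum each lost it without 1 library. The 3 contrasts share the 6 duodenal libraries, so they are not independent of one another. Goblet and Paneth marker sums and the mitochondrial share also differed between the sorts, as given above, and their part in these differences was not tested.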

How the results depend on the processing

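No result past the threshold changed direction under any alternative, and the sign changes over all fits (42 with every library, 82 with a library left out) were of values called in neither setting. Of 299 member values between positive and negative cells under the alternatives, 283 kept their side of the threshold, 9 gained a call and 7 lost it. With a library left out these were 216, 3 and 21 of 240. For the differences between regions they were 441, 9 and 0 of 450, and 700, 5 and 15 of 720. For levels between regions they were 555, 32 and 6 of 593, and 438, 4 and 38 of 480. No paired analysis was run, because the labels give the index pair and not the mouse of each library, and the replicate numbers only follow the order of the samples. The share of reads outside genes was highest in replicate 3 of every group, so a number may mark a shared source. No fit with the replicate as a block was run. The causes of the changes below were not tested, except that at least 10 counts in every library left 5 of the 10 members to test.

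Members called, with that filter, fell to 5 in the duodenum (from 10), 1 in the jejunum (from 4), 2 in the ileum (from 6) and 2 in the colon (from 5), to 3 for the duodenum against each of jejunum, ileum and colon (from 7, 5 and 6), and in positive cells to 4 between duodenum and jejunum (from 9) and 1 between duodenum and colon (from 3). Between jejunum and colon the sort difference was called for 1 member in place of 0 with DESeq2, library size alone and no filter, and between ileum and colon for 1 with DESeq2 and no filter. Positive cells of jejunum against ileum gave 6 with library size alone or no filter and 1 with the compared libraries alone, in place of 3. Positive cells of duodenum against colon gave 6 with DESeq2, 5 with library size alone and 6 with the compared libraries alone, in place of 3. Negative cells of jejunum against ileum gave 4 in place of 1 with library size alone. With a library left out, the members called ranged from 3 to 4 in the colon (3 without negative replicate 1 or positive replicate 3), from 0 to 1 for jejunum against colon and for ileum against colon, from 1 to 4 in positive cells of jejunum against ileum and from 3 to 5 in negative cells of duodenum against colon.

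Over all genes, counts of calls that moved by over 1.5 times with at least 10 counts in every library were 4252 in the jejunum (from 6600), 3855 in the ileum (from 5789), in positive cells 3314 between duodenum and jejunum (from 4991), 456 between jejunum and ileum (from 775) and 1018 between duodenum and colon (from 1861), and in negative cells 30 between duodenum and jejunum (from 109), 115 between jejunum and ileum (from 317), 373 between ileum and colon (from 789) and 768 between duodenum and colon (from 1683). For the sort difference of jejunum against ileum the 40 calls became 133 (DESeq2), 143 (no filter), 94 (i5) and 26 (compared libraries alone). Jejunum against colon gave 928 (library size) and 930 (compared libraries alone) in place of 1458, and ileum against colon 880 (DESeq2) and 259 (library size) in place of 419. In negative cells, duodenum against jejunum gave 235 with no filter, jejunum against ileum 675 (library size) and 478 (i5), and ileum against colon 1833 (library size) and 512 (compared libraries alone). With 1 library left out the count fell to as few as 1419 of 2552 in the duodenum (without positive replicate 1) and 927 of 1972 in the colon (without positive replicate 2), and ran from 24 to 226 (without jejunal positive replicate 3) for jejunum against ileum and from 183 to 660 (without ileal positive replicates 3 and 1) for ileum against colon.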
